A study of Mus musculus with 6 samples.

Results

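The genes described here are those that make, break down and read the cyclic nucleotides cAMP and cGMP, together with *Nos1*, the neuronal nitric oxide synthase. They were matched by symbol: the adenylyl cyclases (*Adcy*), the phosphodiesterases (*Pde*), the catalytic and regulatory subunits of protein kinase A (*Prkac*, *Prkar*), the cGMP-dependent kinases (*Prkg*), the guanylyl cyclases (*Gucy*), the cAMP-gated exchange factors *Rapgef3* and *Rapgef4*, and *Nos1*. The symbols were set with earlier results of these data known, and the study itself names *Nos1* among its dysregulated genes. The rule found 53 genes of the 21667 named genes in the tables. Polyadenylated RNA of the somatosensory cortex was sequenced in 3 mice of each genotype, control and *Mef2c* cKO, all male and on a mixed SVeV-129 and C57BL/6J background. Both genotypes carried floxed *Mef2c* alleles (*Mef2c* fl/fl). The cKO mice also carried Cre recombinase in the *Emx1* gene, which is active in most excitatory neurons of the forebrain and in some glia from the embryo on, so that interneurons of the cortex and the cells of the striatum and thalamus keep *Mef2c*. In both genotypes replicate 1 was 14 weeks old and replicates 2 and 3 were 12 weeks old.

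Cyclic AMP is made by adenylyl cyclases at the membrane when receptors coupled to stimulatory G proteins, or calcium in the case of some cyclases, switch them on. It releases the catalytic subunits of protein kinase A (PKA) from their regulatory subunits and opens the Epac exchange factors, and phosphodiesterases end the signal. Cyclic GMP is made by a soluble guanylyl cyclase that nitric oxide activates, and by membrane guanylyl cyclases, and is read by the cGMP-dependent kinases. In the cortex nitric oxide comes largely from scattered *Nos1*-expressing inhibitory neurons, and cAMP signalling in excitatory neurons bears on synaptic strength and on transcription through CREB.

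Levels are given as CPM, reads per 1000000 of the sample total, from whole read counts recovered out of the deposited RPKM values. The totals were 19326365 to 54128334 reads per mouse, the lowest in *Mef2c* cKO replicate 2. Genotypes were compared with limma on log2(CPM + 0.1) over 14622 genes, with Benjamini-Hochberg adjustment over all of them, and a gene is said to rise or fall in the cKO where its adjusted p was under 0.05 and its absolute log2 fold change above 0.3. The log2 expression of mice of the same genotype correlated across genes at 0.9916 to 0.9947, and of mice of different genotypes at 0.9782 to 0.9808. The targeted gene itself was counted over its whole length. *Mef2c* stood at 800, 772 and 800 CPM in control replicates 1, 2 and 3 and at 1231.3, 1276.3 and 1468.2 CPM in the libraries labelled *Mef2c* cKO, 0.74 higher on the log2 scale (SE 0.07, limma adjusted p = 0.00018). Reads over exons that the deletion leaves in place are in this count, so the level does not check the deletion, and the genotypes rest on the sample labels. *Emx1*, which holds the Cre insertion, was at 16.5, 20.3 and 18.8 CPM in the controls and at 5.71, 4.97 and 5.1 CPM in the cKO mice.

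Of the 53 genes, 48 passed the filter on low values, which asked for more than 0.5 CPM in all 3 mice of a genotype. The photoreceptor phosphodiesterase genes *Pde6a*, *Pde6b* and *Pde6c*, the olfactory guanylyl cyclase *Gucy2d* and the soluble cyclase subunit *Gucy1b2* did not, with mean levels between 0.0264 and 0.473 CPM. *Gucy2c*, the intestinal guanylin receptor, passed through the cKO mice only, and the other 47 passed in both genotypes. In the *Mef2c* cKO cortex 10 of the 48 genes fell and 4 rose. That is 29.2% of them, where 13.7% of all genes tested passed the same cut-offs. Counted by direction, 20.8% of the 48 fell against 7.78% of all genes, and 8.33% rose against 5.88%. The 2 genotypes did not overlap for 24 of the 48 (50%), against 33.8% of all genes. The median log2 fold change of the 48 was -0.03, beside 0.008 over all genes, and the median absolute log2 fold change was 0.25 beside 0.13. *Prkg2*, *Pde7b*, *Adcy7*, *Prkg1*, *Pde8b*, *Pde4d*, *Adcy8*, *Adcy2*, *Prkacb* and *Pde7a* fell, and *Nos1*, *Adcy9*, *Gucy2g* and *Pde4a* rose. The tissue was taken whole, and in such samples fewer cells of a type and less RNA per cell cannot be told apart.

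**Figure D1:**
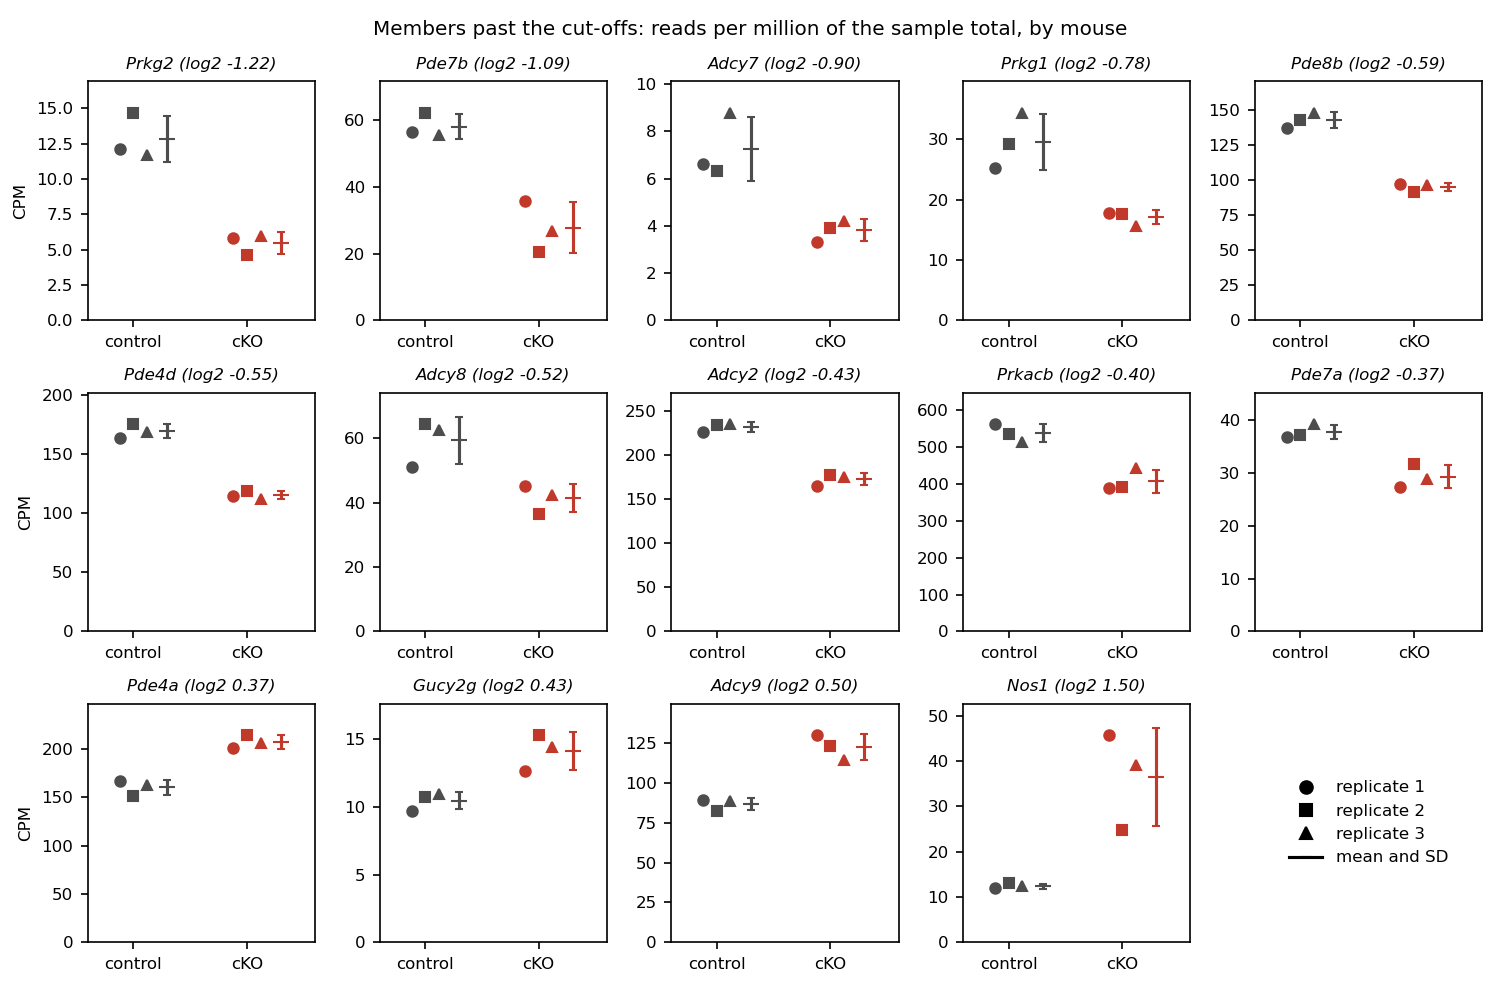
Level by mouse of the 14 genes that rose or fell, in CPM on axes that start at 0. Circles, squares and triangles stand for replicates 1, 2 and 3 of each genotype, and the bars give the mean and SD. In every panel the 3 control mice lie on one side of the 3 *Mef2c* cKO mice, and *Nos1* ranges from 24.7 to 45.8 CPM among the cKO mice.

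RefSeq promoter windows, 250 bases before to 50 after a start site (build GRCm38.p6), were matched to 43 of the 53 genes, 83 windows in all. They were searched on both strands for the MEF2 consensus site, for the cAMP response element TGACGTCA, to which CREB binds, and for its core TGACG, which lies inside the full element. The MEF2 consensus was found in 0 of the 83 windows, and in 3.19% of the 32851 windows of all genes. The full element was found in 2 of the 83 windows, both of *Prkar1a* (2.41%, against 1.79% of all windows), and the core in 20 (24.1%, against 20.8%). Of the 11 genes past the cut-offs that have a window, 6 held the core in at least one, and of the 29 tested genes with a window that did not pass, 12 did. A match is only a run of letters. The windows of *Nos1*, *Adcy9* and *Pde4a*, the genes that rose and hold the core, and of *Prkacb*, the PKA subunit that fell, are printed below with the core, read as TGACG or on the other strand as CGTCA, in capitals. *Adcy7* and *Pde8b* also hold it.
Nos1, chr5:117866589-117866888, plus strand: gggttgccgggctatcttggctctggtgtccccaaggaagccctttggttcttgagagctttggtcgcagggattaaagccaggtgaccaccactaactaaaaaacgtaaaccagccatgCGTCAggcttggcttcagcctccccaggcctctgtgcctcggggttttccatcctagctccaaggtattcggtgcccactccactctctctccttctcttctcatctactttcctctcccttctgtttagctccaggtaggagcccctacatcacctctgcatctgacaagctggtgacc
Adcy9, chr16:4420449-4420748, minus strand: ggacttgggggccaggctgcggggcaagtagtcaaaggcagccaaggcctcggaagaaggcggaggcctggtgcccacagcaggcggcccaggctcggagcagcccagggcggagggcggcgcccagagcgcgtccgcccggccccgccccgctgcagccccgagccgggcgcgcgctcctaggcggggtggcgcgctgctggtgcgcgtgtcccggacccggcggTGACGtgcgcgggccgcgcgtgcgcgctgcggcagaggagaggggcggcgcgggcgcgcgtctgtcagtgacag
Pde4a, chr9:21183851-21184150, plus strand: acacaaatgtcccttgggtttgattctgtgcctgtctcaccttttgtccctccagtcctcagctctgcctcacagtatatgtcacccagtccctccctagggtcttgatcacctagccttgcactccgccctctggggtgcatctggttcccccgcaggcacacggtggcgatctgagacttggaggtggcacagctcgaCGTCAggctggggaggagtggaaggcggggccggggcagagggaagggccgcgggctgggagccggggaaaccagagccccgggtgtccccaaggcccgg
Prkacb, chr3:146812897-146813196, minus strand: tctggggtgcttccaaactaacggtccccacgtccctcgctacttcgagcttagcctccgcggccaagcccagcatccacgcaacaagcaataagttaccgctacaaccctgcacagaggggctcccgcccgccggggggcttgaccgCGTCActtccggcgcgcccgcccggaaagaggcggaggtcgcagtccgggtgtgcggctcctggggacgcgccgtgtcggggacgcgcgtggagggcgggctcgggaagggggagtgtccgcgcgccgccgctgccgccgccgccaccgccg
In *Nos1* the match begins 130 bases before the start site and in *Prkacb* 102 bases before it. In *Pde4a* it begins 50 bases before the start site and in *Adcy9* 24 bases before it.

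Adenylyl cyclases came first. All 10 genes were tested, 3 fell and 1 rose, while the summed level of the family, 242 ± 3.78 CPM per kb of exon in controls (SD, n = 3) and 251 ± 9.14 in the cKO, overlapped between genotypes (exact permutation test over mice, two-sided, p = 0.2, where 3 against 3 mice cannot give less than 0.1). *Adcy1*, a cyclase that calcium and calmodulin switch on, was the most abundant, with 109 CPM per kb in controls. *Adcy2*, which G protein beta-gamma subunits stimulate, followed at 55.2, and the calcium-inhibited *Adcy5* at 24.2 CPM per kb. *Adcy9*, *Adcy6*, *Adcy8* and *Adcy3* lay between 8.64 and 16.7 CPM per kb, and *Adcy7*, *Adcy4* and the soluble, bicarbonate-sensitive *Adcy10* between 0.268 and 1.14. Among neighbours in this order, the control mice overlapped between *Adcy6* and *Adcy8* and between *Adcy7* and *Adcy4*.

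*Adcy2* (chromosome 13, 68758920 to 69138419 in mm9, as are all gene positions given here) was at 226, 235 and 236 CPM in controls and 165, 178 and 175 CPM in the cKO. Each cKO mouse was below each control, and the log2 fold change was -0.43 (SE 0.05, adjusted p = 0.00066). *Adcy7* (chromosome 8, 90796302 to 90853861), a low-level member of the same beta-gamma-stimulated class, was at 6.62, 6.34 and 8.79 CPM in controls and 3.3, 3.93 and 4.21 CPM in the cKO. It fell by 0.90 on the log2 scale (SE 0.16, adjusted p = 0.0044). The third gene of that class, *Adcy4*, was at 3.89 ± 0.509 and 4.45 ± 0.458 CPM (SD, n = 3 each), a log2 fold change of 0.19 with a 95% interval of -0.14 to 0.53.

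The calcium-stimulated cyclases did not share a direction. *Adcy8* (chromosome 15, 64530604 to 64753858) was at 51.1, 64.6 and 62.7 CPM in controls and 45.1, 36.6 and 42.5 CPM in the cKO, without overlap, a log2 fold change of -0.52 (SE 0.11, adjusted p = 0.0098). *Adcy1* was at 1480.8, 1304.0 and 1327.5 CPM in controls and at 1634.9, 1552.6 and 1591.6 in the cKO. All 3 cKO mice were above the controls, but the gene missed the cut-offs, at a log2 fold change of 0.22 (SE 0.07, adjusted p = 0.064). *Adcy3* had an adjusted p of 0.027 by limma and a log2 fold change of 0.26, inside the cut-off on size. *Adcy9* (chromosome 16, 4287529 to 4420498), the cyclase that forskolin activates poorly, was at 88.9, 82.4 and 88.4 CPM in controls and 130, 123 and 114 CPM in the cKO. Its log2 fold change was 0.50 (SE 0.07, adjusted p = 0.0008), again with no overlap.

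Within the family the make-up shifted. *Adcy1* made up 48.1%, 43.4% and 44.4% of the summed cyclase CPM per kb in controls and 50.6%, 51.6% and 50.2% in the cKO. The share of *Adcy2* was 22.9% ± 0.902 in controls and 16.4% ± 1.2 in the cKO, that of *Adcy9* 6.89% ± 0.259 and 9.42% ± 0.638, and that of *Adcy8* 4.9% ± 0.671 and 3.28% ± 0.228 (SD, n = 3 each). For these 4 shares the genotypes did not overlap, which gives the smallest p the exact permutation test allows here, 0.1. *Adcy5*, *Adcy6* and *Adcy10* had log2 fold changes of 0.08, -0.11 and -0.19, with 95% intervals that include 0.

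**Figure D2:**
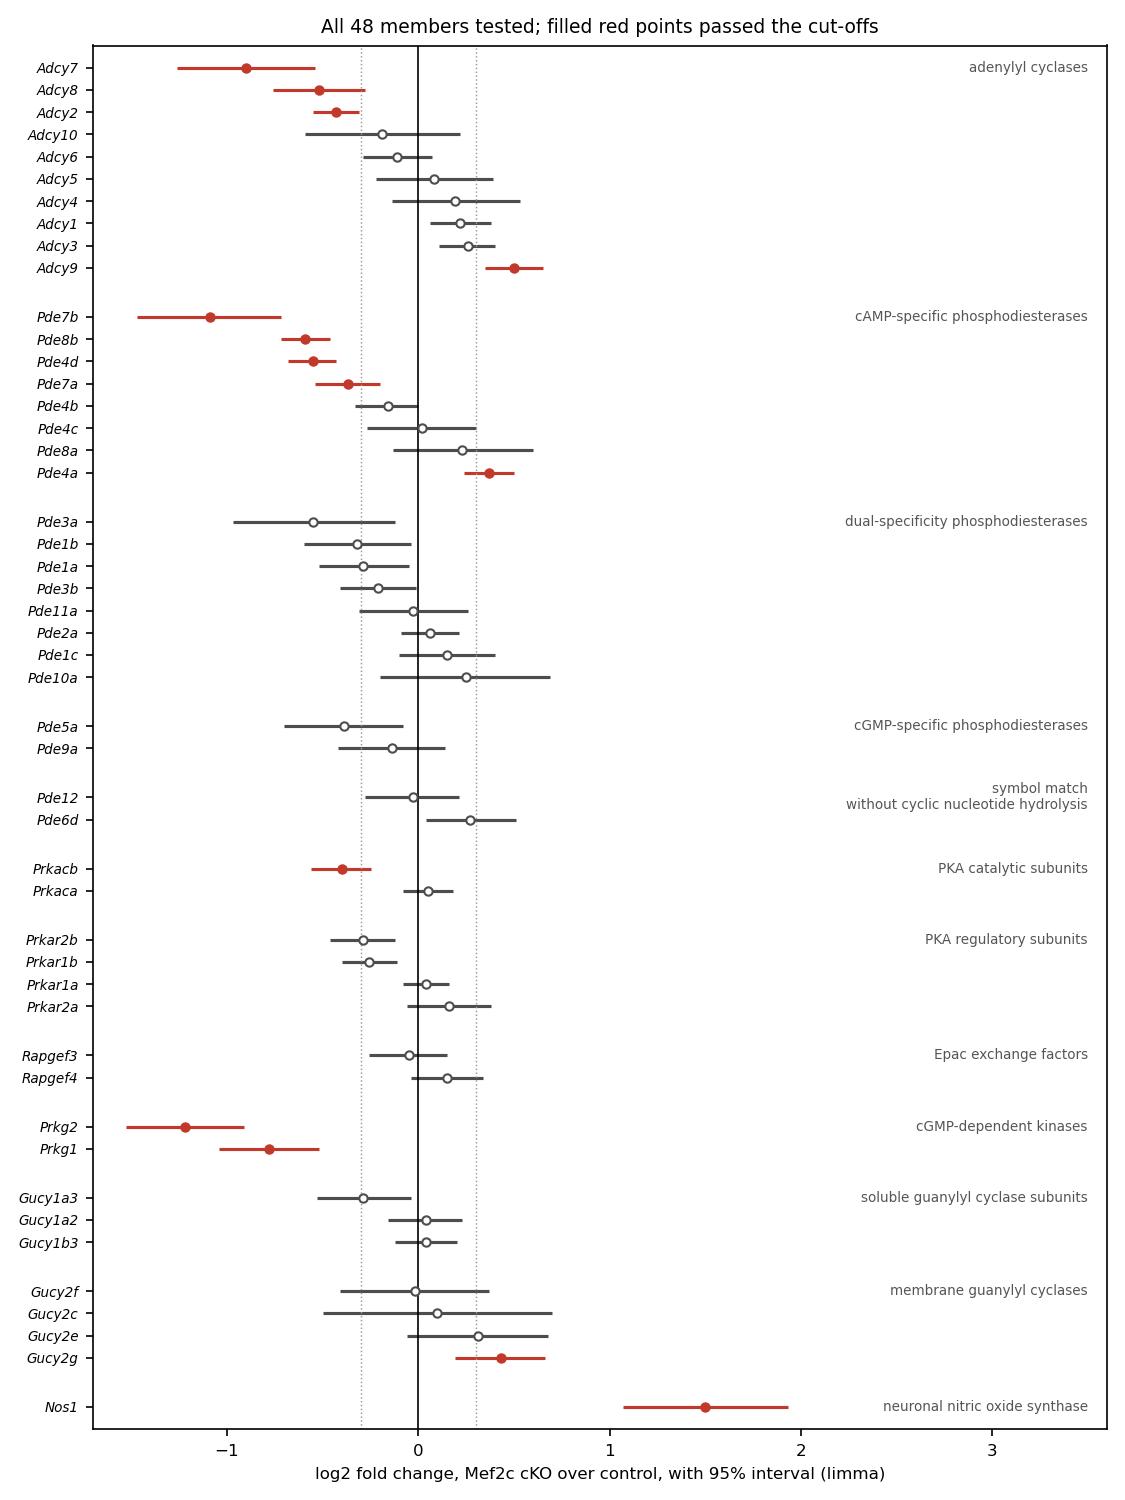
The log2 fold change (*Mef2c* cKO over control) of the 48 genes tested, grouped by role, with its 95% interval from limma. Filled red points are the 14 genes past the cut-offs, and dotted lines mark a log2 fold change of 0.3 in either direction. Both cGMP-dependent kinases lie far to the left and *Nos1* far to the right, while the dual-specificity phosphodiesterases straddle 0.

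The phosphodiesterases that hydrolyse cAMP alone, the *Pde4*, *Pde7* and *Pde8* genes, changed in 5 of 8 cases: 4 fell and 1 rose. Their summed level was 90.5, 90.8 and 95.2 CPM per kb in controls and 78.7, 81.2 and 80.8 in the cKO, lower by 13% in the mean with no overlap (exact permutation p = 0.1, the smallest possible). *Pde7b* (chromosome 10, 20117810 to 20444884) had the largest change among all phosphodiesterases tested, from 56.3, 62.2 and 55.5 CPM in controls to 35.9, 20.6 and 26.8 CPM in the cKO. The log2 fold change was -1.09 (SE 0.17, adjusted p = 0.0018). The cKO mice differed from each other more than the controls did, with replicate 2 lowest. *Pde7a* (chromosome 3, 19123108 to 19211322) was at 36.9, 37.2 and 39.4 CPM in controls and 27.3, 31.7 and 29 CPM in the cKO, a log2 fold change of -0.37 (SE 0.08, adjusted p = 0.0097). Its exons overlap another annotated gene, *Gm16093*, and the strand setting of the read counting is not given in the sources used here, so reads of the 2 genes may not be told apart. *Pde7a* is the only one of the 14 with such an overlap. Among the genes that did not pass, the same limit holds for *Prkar1b*, *Adcy3*, *Pde12*, *Rapgef3* and *Rapgef4*.

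*Pde8b* (chromosome 13, 95794409 to 96020291), a high-affinity cAMP phosphodiesterase, was at 137, 143 and 148 CPM in controls and 96.9, 91.6 and 96.3 CPM in the cKO, a log2 fold change of -0.59 (SE 0.06, adjusted p = 0.00014). The replicates lay close together and the genotypes far apart. Its paralog *Pde8a* was at 19.5 ± 4.11 and 22.8 ± 3.56 CPM (SD, n = 3 each), a log2 fold change of 0.23 with a 95% interval of -0.13 to 0.60. The ratio of *Pde8b* to *Pde8a* per kb was 5.17 ± 1.05 in controls and 2.92 ± 0.552 in the cKO, without overlap.

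The *Pde4* genes encode the main rolipram-sensitive phosphodiesterases of the brain. *Pde4d* (chromosome 13, 109240142 to 110743669) was at 164, 176 and 169 CPM in controls and 115, 119 and 112 CPM in the cKO. Its log2 fold change was -0.55 (SE 0.06, adjusted p = 0.00017). *Pde4a* (chromosome 9, 20970158 to 21017692) moved the other way, from 167, 152 and 163 CPM to 201, 215 and 206 CPM, a log2 fold change of 0.37 (SE 0.06, adjusted p = 0.0023). *Pde4b* was at 154, 153 and 169 CPM in controls and 129, 145 and 152 CPM in the cKO, a log2 fold change of -0.16 (adjusted p = 0.18 by limma). *Pde4c* was low in both, at 10.8 ± 1.22 and 11 ± 1.42 CPM (SD, n = 3 each). The share of *Pde4a* in the summed *Pde4* level per kb was 43.7%, 40.4% and 41.4% in controls and 53.5%, 53.7% and 52.7% in the cKO, while that of *Pde4d* was 23.7%, 25.8% and 23.7% against 17%, 16.5% and 15.7%. Since both genes are counted in the same library, the ratio of *Pde4d* to *Pde4a* does not depend on how libraries are scaled. It was 0.542, 0.638 and 0.572 in controls and 0.317, 0.306 and 0.299 in the cKO (exact permutation p = 0.1, the smallest possible).

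**Figure D3:**
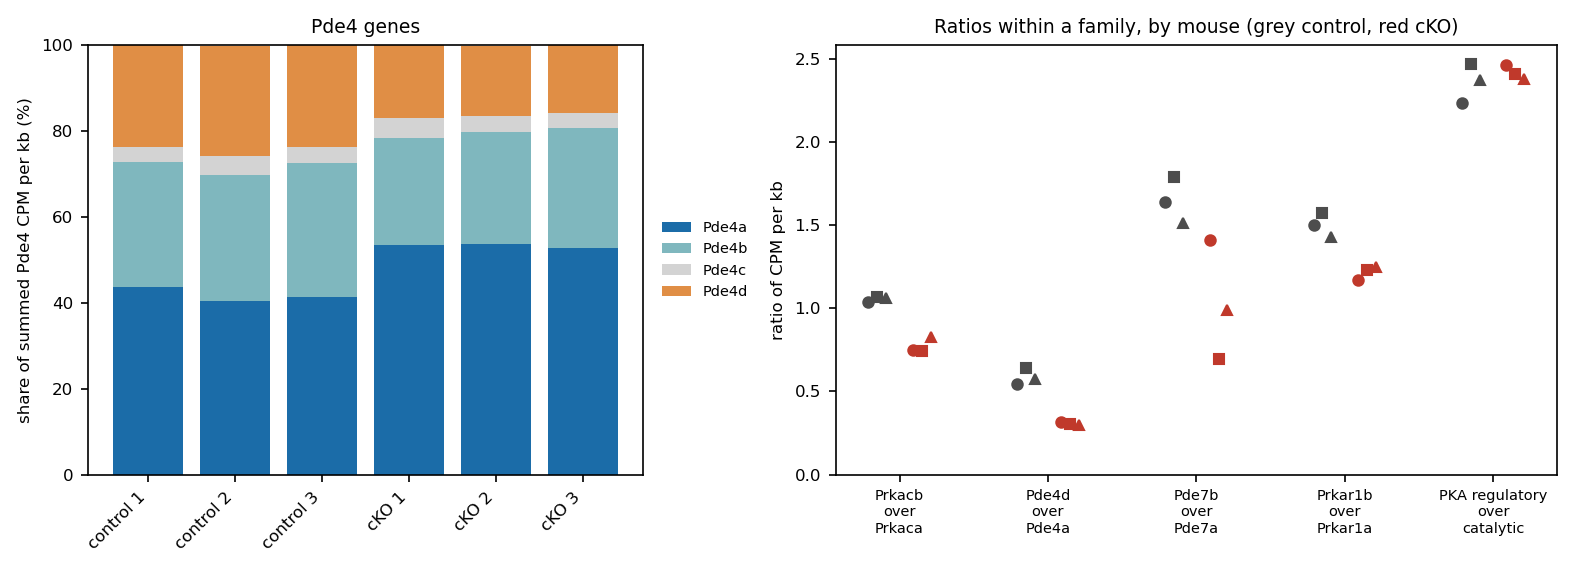
Left, the share of each *Pde4* gene in the summed *Pde4* CPM per kb of each mouse, in percent. Right, ratios of CPM per kb between related genes in each mouse, with circles, squares and triangles for replicates 1, 2 and 3. The *Pde4a* share is 40.4% to 43.7% in control and 52.7% to 53.7% in *Mef2c* cKO mice, and the ratio of PKA regulatory to catalytic subunits overlaps between genotypes.

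None of the 8 phosphodiesterase genes that act on both cAMP and cGMP passed the cut-offs. *Pde2a*, which cGMP stimulates, was the most abundant phosphodiesterase of all per kb, at 111 CPM per kb in controls and 116 in the cKO, and its log2 fold change of 0.06 had a 95% interval of -0.09 to 0.21. The calcium and calmodulin-stimulated *Pde1a* and *Pde1b* were lower in every cKO mouse than in any control. *Pde1a* was at 247, 229 and 209 CPM in controls and 199, 159 and 207 CPM in the cKO (log2 fold change -0.29, limma adjusted p = 0.098). *Pde1b* was at 125, 131 and 121 CPM in controls and 107, 80.3 and 119 CPM in the cKO (log2 fold change -0.32, limma adjusted p = 0.13). In both genes cKO replicate 2 was the lowest mouse, and replicate 3 lay just below the controls. *Pde3a* and *Pde3b*, which cGMP inhibits, had log2 fold changes of -0.55 and -0.21, with adjusted p-values of 0.087 and 0.16 by limma. *Pde1c* and *Pde11a* were within 0.15 of no change on the log2 scale.

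*Pde10a*, the phosphodiesterase of striatal projection neurons, was at 110, 112 and 98.8 CPM in controls and 181, 91.9 and 122 CPM in the cKO. The cKO mice lay on both sides of the controls, and the log2 fold change of 0.25 had a 95% interval of -0.20 to 0.69. Of the genes specific for cGMP, *Pde5a* was at 23.8, 20.2 and 22 CPM in controls and 14.3, 15.6 and 21 CPM in the cKO (log2 fold change -0.39, limma adjusted p = 0.096), and *Pde9a* had a log2 fold change of -0.14 with a 95% interval of -0.42 to 0.14. Without cKO replicate 3, the highest of the cKO mice, the log2 fold change of *Pde5a* was -0.55 with an adjusted p of 0.01 by limma. *Pde6d*, a carrier of lipid-modified proteins, and *Pde12*, a phosphodiesterase of other substrates, match the symbols without breaking down cyclic nucleotides. The log2 fold change of *Pde6d* was 0.27, with a limma adjusted p of 0.12, and that of *Pde12* was -0.03.

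Protein kinase A holds 2 catalytic subunits against a dimer of regulatory subunits. In controls the catalytic genes *Prkacb* and *Prkaca* stood at nearly the same level, 98.6 and 93.2 CPM per kb. *Prkacb* (chromosome 3, 146392543 to 146475924) was at 564, 536 and 515 CPM in controls and 388, 391 and 443 CPM in the cKO, without overlap, a log2 fold change of -0.40 (SE 0.07, adjusted p = 0.0035). *Prkaca* was at 231, 212 and 205 CPM in controls and 220, 223 and 227 CPM in the cKO, so that its log2 fold change of 0.05 had a 95% interval of -0.08 to 0.18. The ratio of *Prkacb* to *Prkaca* per kb, also added after the values had been seen, was 1.04, 1.07 and 1.06 in controls. In the cKO it was 0.748, 0.744 and 0.825 (exact permutation p = 0.1, the smallest possible).

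None of the 4 regulatory subunit genes passed both cut-offs, though *Prkar1b* and *Prkar2b*, the forms enriched in neurons, passed the one on the adjusted p. *Prkar1b*, the most abundant of all 53 genes at 253 CPM per kb in controls, was at 963, 1023.9 and 909 CPM in controls and 783, 798 and 841 CPM in the cKO. Each cKO mouse was below each control, with a log2 fold change of -0.26 (SE 0.07, adjusted p = 0.026). *Prkar2b* was at 63.1, 63.9 and 59.5 CPM in controls and 49.5, 47.1 and 56 CPM in the cKO, a log2 fold change of -0.29 (SE 0.08, adjusted p = 0.029). The more widely expressed *Prkar1a* and *Prkar2a* had log2 fold changes of 0.04 and 0.16, with 95% intervals of -0.08 to 0.16 and -0.06 to 0.38. Summed per kb, the catalytic genes were at 192 ± 10.2 in controls and 171 ± 7.17 in the cKO, and the regulatory genes at 451 ± 17.9 and 413 ± 11.3 (SD, n = 3 each). The genotypes did not overlap in either sum. The ratio of regulatory to catalytic mRNA, in contrast, was 2.23, 2.47 and 2.37 in controls and 2.46, 2.41 and 2.38 in the cKO (exact permutation p = 0.6).

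The Epac genes were *Rapgef4*, abundant in neurons, and the lower *Rapgef3*. *Rapgef4* was at 720, 648 and 712 CPM in controls and 716, 868 and 727 CPM in the cKO, and *Rapgef3* at 28.3 ± 2.47 and 27.3 ± 1.88 CPM (SD, n = 3 each). The genotypes overlapped in both, and the 95% intervals of their log2 fold changes were -0.04 to 0.34 and -0.26 to 0.15.

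**Figure D4:**
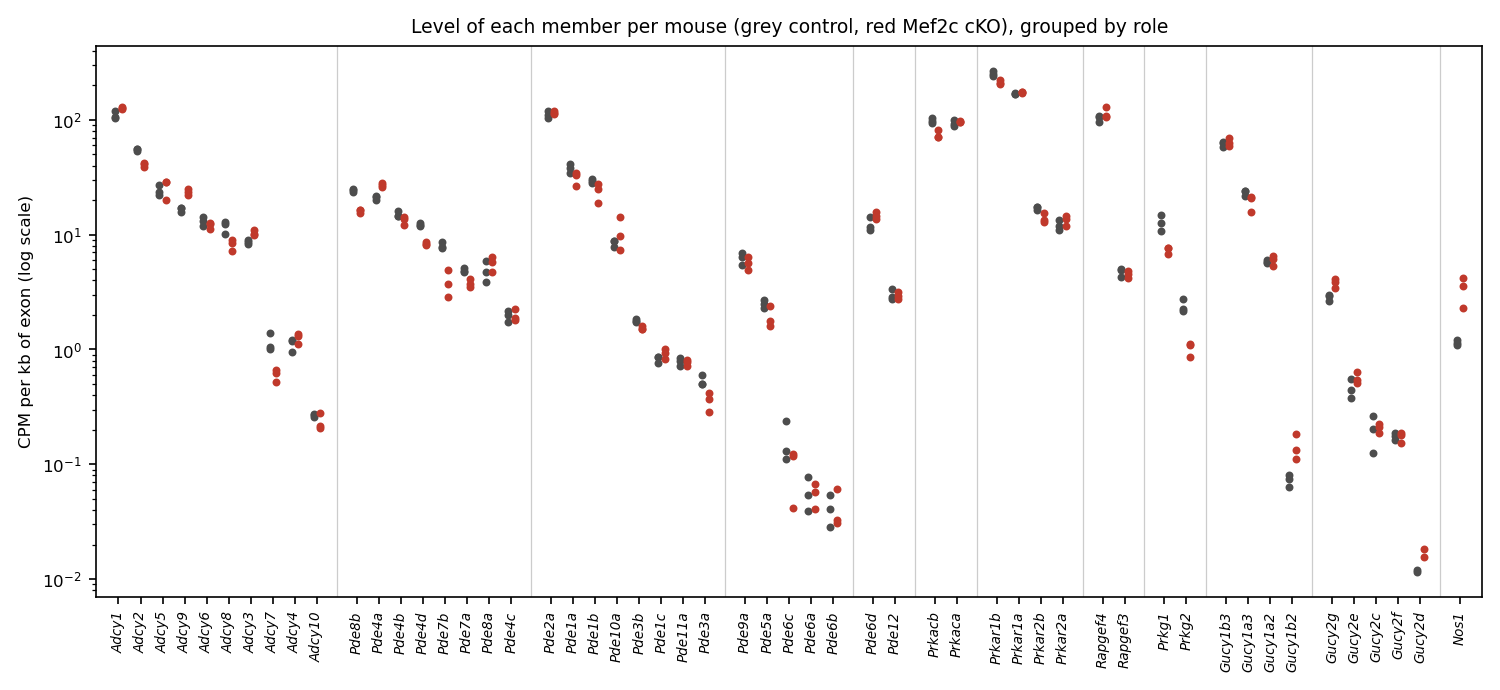
Level of each of the 53 genes in each mouse, in CPM per kb of exon on a log scale, grouped by role and ordered by the control level. Grey points are control and red points *Mef2c* cKO mice, and *Gucy2d* is not drawn in the 2 mice in which it had no read. The levels drawn run from 269 CPM per kb for *Prkar1b* down to 0.0116 for *Gucy2d*.

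On the cGMP side *Nos1* rose, with the largest change of the 48 genes, and both cGMP-dependent kinases fell. *Nos1* (chromosome 5, 118231041 to 118408849) was at 11.9, 13 and 12.4 CPM in control replicates 1, 2 and 3 and at 45.8, 24.7 and 39.1 CPM in the cKO. The lowest cKO mouse was well above the highest control, and the means of 36.5 ± 10.8 and 12.5 ± 0.553 CPM (SD, n = 3 each) stand in a ratio of 2.93. The log2 fold change was 1.50 (SE 0.19, 95% interval 1.07 to 1.93, adjusted p = 0.00067), and it lay between 1.31 and 1.76 with any 1 mouse left out.

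*Prkg1* (chromosome 19, 30643728 to 31839312) was at 25.2, 29.2 and 34.4 CPM in controls and 17.8, 17.7 and 15.7 CPM in the cKO, a log2 fold change of -0.78 (SE 0.12, adjusted p = 0.0016). *Prkg2* (chromosome 5, 99358792 to 99466370), the membrane-bound form, was at 12.1, 14.7 and 11.7 CPM in controls and 5.86, 4.61 and 5.97 CPM in the cKO, a log2 fold change of -1.22 (SE 0.14, adjusted p = 0.00036). *Prkg2* fell most of the 48 genes. Neither gene had a cKO mouse within the control range, and their summed level was 15.1 ± 1.93 CPM per kb in controls and 8.36 ± 0.453 in the cKO (SD, n = 3 each), lower by 44.7% in the mean. *Prkg1* was several times the more abundant of the 2 per kb, at 12.7 against 2.4 CPM per kb in controls, and their ratio overlapped between genotypes (exact permutation p = 0.2).

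The subunits of the soluble guanylyl cyclase, the receptor for nitric oxide, did not pass. The beta subunit *Gucy1b3* was at 209, 204 and 189 CPM in controls and 191, 205 and 225 CPM in the cKO, and its log2 fold change of 0.04 had a 95% interval of -0.12 to 0.20. The alpha subunit *Gucy1a3* was at 101, 112 and 111 CPM in controls and 96.5, 72.9 and 98.3 CPM in the cKO (log2 fold change -0.29, limma adjusted p = 0.12). The genotypes did not overlap, and cKO replicate 2 was lowest. The second alpha subunit, *Gucy1a2*, was at 30.7 ± 0.834 and 31.6 ± 3.25 CPM (SD, n = 3 each). *Gucy1b2* was below the filter, with 0.206, 0.223 and 0.175 CPM in controls and 0.305, 0.362 and 0.499 CPM in the cKO.

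Of the membrane guanylyl cyclases in the rule, *Gucy2g* (chromosome 19, 55272787 to 55315726) was the most abundant and the one that rose. It was at 9.7, 10.7 and 10.9 CPM in controls and 12.6, 15.3 and 14.4 CPM in the cKO, a log2 fold change of 0.43 (SE 0.11, adjusted p = 0.023). This call was the weakest of the 14. It was lost without control replicate 1 (log2 fold change 0.37, limma adjusted p = 0.077), without control replicate 2 (0.44, adjusted p = 0.056), without cKO replicate 2 (0.37, adjusted p = 0.074) and without cKO replicate 3 (0.41, adjusted p = 0.069). The retinal cyclases *Gucy2e* and *Gucy2f* had log2 fold changes of 0.31 and -0.02, and *Gucy2c* of 0.10, with 95% intervals that include 0.

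The other genes of these pathways were described with 10 lists that hold 85 genes tested outside the symbol rule. Of these, 8 rose and 9 fell (20%, beside 13.7% of all genes), with a median log2 fold change close to 0. Among peptide ligands and receptors of the cyclases 3 of 12 fell and 1 rose. *Crhr1*, the cortical receptor for corticotropin-releasing hormone, fell from 37.6, 40.9 and 38.4 CPM to 12.7, 13.5 and 13.3 CPM, a log2 fold change of -1.56 (adjusted p = 2.7e-06 by limma). *Adcyap1*, which encodes the cyclase-activating peptide PACAP, had a log2 fold change of -1.29, and *Npr2*, the natriuretic peptide receptor that is itself a guanylyl cyclase, of -0.63. The gene of this list that rose, *Adcyap1r1*, the PACAP receptor, was named after its values were seen and had a log2 fold change of 0.33.

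Among nitric oxide synthases and partners of *Nos1* 3 of 12 genes rose and 0 fell. *Ass1*, which makes the precursor from which cells recycle arginine, was at 16.6, 17.4 and 15.6 CPM in controls and 25.8, 24.3 and 26.7 CPM in the cKO (log2 fold change 0.63, limma adjusted p = 0.00069). *Dynll1*, a dynein light chain that binds *Nos1* protein, had a log2 fold change of 0.47. Of 15 A-kinase anchoring genes 2 fell, *Akap12* (-0.76) and *Akap7* (-0.51), and of 4 PKA inhibitor and related genes 1 fell, *Pkib* (-0.63). Of 5 PKA and PKG substrates tested *Arpp19* (-0.45) and *Arpp21* (-0.31) fell and *Ppp1r1a* (0.45) rose. Of 7 G protein genes 1 rose, *Gnal*, the olfactory-type stimulatory alpha subunit (0.42).

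Of 6 cyclic nucleotide-gated and HCN channel genes tested 1 fell, *Hcn4* (-1.18), at a mean of 1.5 CPM in controls and 0.608 CPM in the cKO. Of 8 exchange factors related to Epac and Rap GTPases tested 2 rose, *Rapgef2* (0.48) and *Rap2a* (0.41). Of the 11 CREB factors and coactivators 0 passed, and their summed level was 641 to 647 CPM in controls and 640 to 665 CPM in the cKO. Of 5 tested genes for cyclic nucleotide exporters (*Abcc4*, *Abcc5*), a cAMP-binding membrane protein (*Bves*) and adenosine receptors (*Adora1*, *Adora2a*) 0 passed.

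Markers of cell types that the dissected tissue could hold were measured beside these results. The list for long-range *Nos1* interneurons held 6 genes, of which 2 rose, *Sst* (log2 fold change 0.57) and *Npy* (0.54), and 0 fell. Its summed level was 203 to 225 CPM in controls and 246 to 361 CPM in the cKO. *Sst* was at 233, 172 and 141 CPM in cKO replicates 1, 2 and 3, and *Tacr1* at 5.44, 3.26 and 5.06 CPM. Over the same 3 mice *Nos1* was at 45.8, 24.7 and 39.1 CPM, which is the order of *Tacr1* and of no other marker in the list. *Nxph1* and *Crhbp* did not pass, with log2 fold changes of -0.05 and 0.31 (limma adjusted p = 0.64 and 0.22). *Chodl*, the marker most specific to these cells, was at 1.06, 0.526 and 0.931 CPM in controls and 1.16, 1.66 and 1.13 CPM in the cKO (limma adjusted p = 0.17). *Nos1* had a larger log2 fold change, 1.50, than any of the 6 markers, and the part of this cell type in its rise was not tested. The general interneuron list (3 of 15 rose, 1 fell) summed to 1693.7 to 1796.6 CPM in controls and 1776.4 to 1823.5 CPM in the cKO.

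The striatal list (2 of 12 rose, 1 fell) set cKO replicate 2 apart. Its summed level was 448 to 545 CPM in controls, 604 and 556 CPM in cKO replicates 1 and 3, and 373 CPM in replicate 2. The sum leans on *Foxp1*, the most abundant gene of the list and the one that fell. *Foxp1* was at 249, 253 and 236 CPM in controls and at 153, 148 and 149 CPM in the cKO, much alike in the 3 cKO mice. *Adora2a* was at 7.47, 9.56 and 5.14 CPM in controls and 20.3, 1.35 and 14.1 CPM in the cKO, and *Drd2* at 2.56, 3.56 and 1.63 CPM and 5.8, 0.776 and 4.71 CPM. In contrast *Drd1* and *Penk* rose in all 3 cKO mice (log2 fold changes 1.70 and 1.31), and *Foxp1* fell in all 3 (-0.71, limma adjusted p = 2.8e-05). Of the 48 cyclic nucleotide genes tested, 14 (29.2%) had their lowest level of the 6 mice in cKO replicate 2, beside 17.9% of all genes tested. *Pde10a*, *Adcy5*, *Pde1b*, *Gucy1a3* and *Pde7b* were among them, and so were *Prkg2*, *Adcy8*, *Pde8b*, *Pde1a*, *Pde3a*, *Prkar2b*, *Adcy6*, *Pde9a* and *Gucy2f*. A gene that is lower in all cKO mice has its lowest mouse among them whatever the striatal content. Since 20.8% of the 48 fell against 7.78% of all genes, the 17.9% is not a like baseline. *Nos1* was lowest in cKO replicate 2 among the cKO mice. Without that mouse the log2 fold change of *Nos1* was 1.76, of *Pde7b* -0.90, of *Pde10a* 0.48 (limma adjusted p = 0.071), of *Adcy5* 0.26, of *Pde1b* -0.15 and of *Gucy1a3* -0.15. *Nos1* and *Pde7b* kept their calls and the other 4 remained short of the cut-offs.

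**Figure D5:**
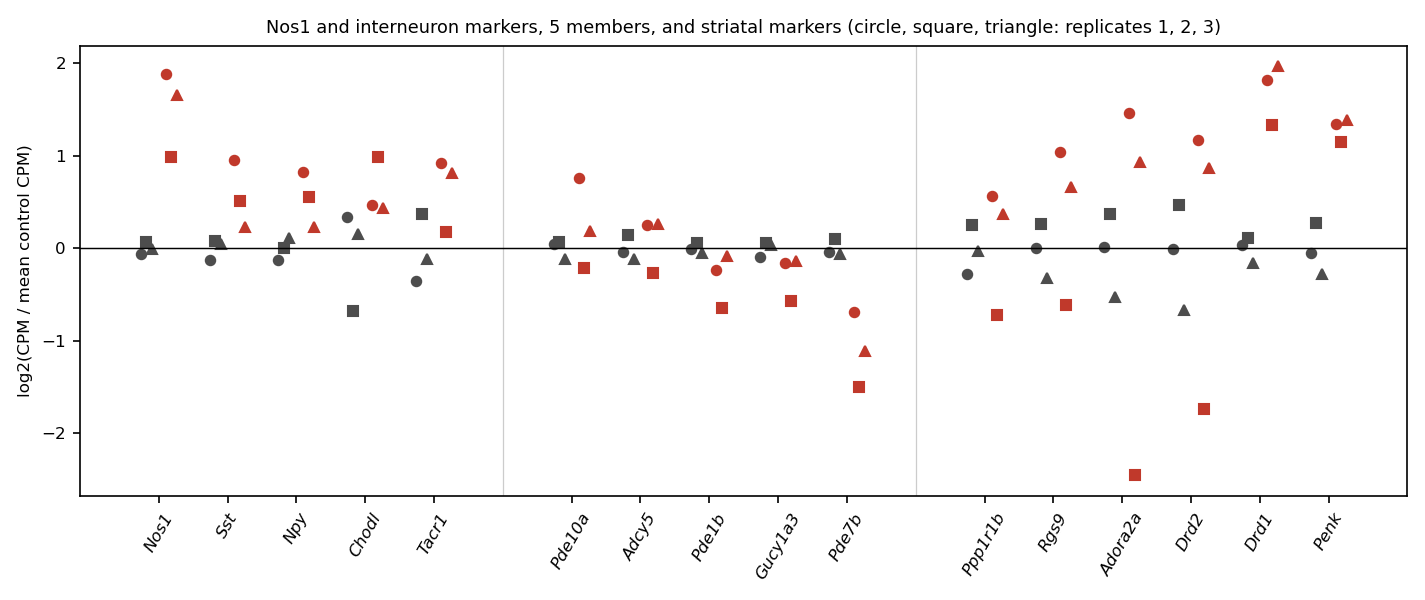
Log2 ratio of the CPM in each mouse to the mean control CPM. Drawn are *Nos1* with 4 of the 6 markers listed for long-range *Nos1* interneurons, and 6 of the 13 listed striatal markers. Between them stand 5 genes of the cyclic nucleotide set picked after their values were seen. *Nxph1*, *Crhbp* and *Foxp1* are among the listed markers not drawn. Grey symbols are control and red symbols *Mef2c* cKO mice, and circles, squares and triangles are replicates 1, 2 and 3. The red square, cKO replicate 2, lies lowest for *Pde10a*, *Adcy5*, *Pde1b*, *Gucy1a3* and *Pde7b* as for *Adora2a* and *Drd2*.

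Of the other lists, the summed levels of the hippocampal, thalamic, astrocyte and microglial genes did not overlap between genotypes, and those of the pyramidal, oligodendrocyte, meningeal and vascular genes did. Of 14 pyramidal neuron genes 4 rose and 5 fell, with summed levels of 4950.5 to 5680.7 CPM in controls and 5208.3 to 6076.6 CPM in the cKO. The hippocampal list (3 of 8 rose, 1 fell) was at 119 to 132 CPM in controls and 199 to 312 CPM in the cKO, and the thalamic list (1 of 6 rose, 3 fell) at 87.1 to 97.7 and 60.4 to 68.5 CPM. The astrocyte list (2 of 10 rose, 1 fell) was at 4827.3 to 5125.3 and 4261.6 to 4524.5 CPM, and the oligodendrocyte list (3 of 10 rose) at 3292.9 to 5327.5 and 5249.7 to 6711.0 CPM. A sum follows the most abundant genes of its list and does not measure the amount of a cell type. In the astrocyte list *Slc1a2* alone had a mean of 3406.8 CPM in controls and 2864.0 CPM in the cKO. The meninges and choroid plexus list (1 of 9 rose, 1 fell) was at 44.6 to 67.3 and 48.7 to 103 CPM. Of 10 microglial and 10 endothelial and mural genes 0 passed, with sums of 246 to 274 and 227 to 242 CPM and of 232 to 257 and 226 to 246 CPM. Their part in the changes of the cyclic nucleotide genes was not tested.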

How the data were processed

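Cortical RNA of 3 mice per genotype was sequenced. By the methods of the study, reads of a directional polyA library were aligned to mm9 with TopHat and Bowtie and counted on UCSC genes with HTSeq. The authors deposited RPKM values, 1 table per mouse with 21759 rows, 92 of them without a gene name (0.0508% to 0.0753% of reads). In each table the RPKM were found to be whole counts divided by the sample total and by lengths that recur every 65 to 296 genes in the order of NCBI gene numbers, not by each gene's own length. The recurring lengths and totals were solved for, and counts came out for 99.873% to 99.9% of the values above 0, summing to at least 99.96% of each total. All 53 genes had a count in every mouse.

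Counts divided by the total (CPM) were fitted with limma 3.58.1 in R 4.3.3 (lmFit, eBayes with a variance trend, no covariates) on log2(CPM + 0.1), which understates the change of low genes. The fold cut-off of 0.3 and the adjusted p of 0.05 follow the study. Groups came from the sample labels, and each mouse is 1 replicate. Levels per kb use the exon length of each gene in gencode vM1 (mm9). Sums and ratios were compared with an exact two-sided permutation test over mice. Genes past the cut-offs are given with every mouse, others within their role, and listed genes up to 3 per list. The values of 2 listed genes are not reported here. The genes and lists were chosen with earlier results of these data known, and the ratios within families were added after the values had been seen. In data simulated from these counts, 83% of genes changed by a log2 of 0.5 and 100% of those changed by 1 were called, and 13 unchanged genes of 14622 tested. There 200 genes above 1 CPM were changed, and all genes had the same spread between mice besides counting error. The shares called therefore do not carry over to genes that are lower or vary more between mice. Alternatives were other pseudocounts, filters, scaling and cut-offs, no variance trend, each mouse left out, a replicate block and the deposited RPKM. Precision is limited by 3 mice per genotype and, for low genes, by counting error. Python 3.11.15, numpy 2.4.6, pandas 2.3.3 and matplotlib 3.10.9 were used.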

Additional observations from a re-analysis of the deposited data

How the results depend on the processing

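On recovered counts, 13 of the 14 calls were kept under all 13 alternatives that refitted the data: a pseudocount of 0.5 or 1, filtering on the mean or not at all, median ratio scaling, no variance trend, each mouse left out and the replicate block. *Gucy2g* was lost in 4 of the fits with a mouse left out. With a mouse left out, 13 to 16 of the genes described here and 1657 to 1869 of all genes passed, and *Prkar2b*, *Pde1b*, *Pde5a* and *Pde6d* entered in 1 or more of these fits. Without a cut-off on the fold change 17 genes passed. With a cut-off of 1 there were 3 (*Nos1*, *Prkg2* and *Pde7b*), and 472 of all genes. Whether the replicate numbers pair the mice, for example as littermates, is not known, though replicate 1 was the older mouse in both genotypes. Same-numbered mice deviated from their group means with correlations of -0.176, -0.109 and -0.082 across genes. Deviations from a mean of 3 mice are tied to each other, so these correlations cannot exclude a pairing. With the replicate block 14 of these genes and 1695 of all genes passed.

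On the deposited RPKM values, taken as they are, 0 of the 29 genes that passed the filter were called, and 14 of all 7974, since each table divides a gene by another length. There *Adcy9* had a log2 fold change of -2.05 and *Pde7a* of 0.82, the reverse of their changes in CPM. The levels per kb depend on the annotated exon length. The limma p-values test a difference in means, with a variance estimated from 3 mice per genotype and moderated across genes.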
